A study of Homo sapiens with 6 samples.

Results

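The contacts described here joined bins on different chromosomes among chromosomes 1 to 22 in the Hi-C maps of OE33, an esophageal adenocarcinoma cell line, and SNU-C1, a colon cancer cell line. Every such pair of 40-kb bins that held a value was a member, which gave 47428688 of the 73847416 bin pairs in the OE33 map and 18370145 of the 42221128 bin pairs in the SNU-C1 map, among 225153452 bin pairs in the 6 maps of the series. No treatment is given for either line, and both were processed with the same in situ protocol and the enzyme MboI, with 1 map each. The methods say that Hi-C was run in duplicate, but the sources used here do not state whether each map holds 1 library or both, and Hi-C values hold no expression by which the labelled cell types could be checked. With 1 map per line no difference between the lines has a replicate check, no test was run, and the intervals given below cover counting error only. The breast cancer cell line HCC1954, also with 1 map, is shown for comparison where stated, and the maps of SW480 were not used.

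Hi-C joins the ends of DNA fragments that lie close to each other in the nucleus. The number of read pairs that link 2 places in the genome is therefore used as a measure of how often they meet. The part of copy number and of fragments joined at random in this number was not tested. Chromosomes occupy territories, most contacts stay within a chromosome, and those that leave it are known to bring together small gene-rich chromosomes, gene-dense regions and chromosome ends. Where DNA of different chromosomes has been joined by a rearrangement, the map shows contacts that are strongest at the junction and decline with distance from it, as they do along an ordinary chromosome.

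The maps hold no read pairs within a single 40-kb bin, so every share below is a share of read pairs between different bins. On chromosomes 1 to 22 the OE33 map held 136017485 read pairs and the SNU-C1 map 130489336, recovered from the corrected values. Of these, 48893490 read pairs of OE33 joined different chromosomes, a share of 35.9% (95% exact binomial interval 35.94 to 35.95%), and 18834365 of SNU-C1, a share of 14.4% (14.43 to 14.44%). HCC1954 lay between them, with 18.99% of 110621058 read pairs. The order of the 3 lines was kept when pairs within a chromosome closer than 1 Mb were set aside, with 58.1% in OE33, 38.6% in HCC1954 and 33.2% in SNU-C1. Most contacts between chromosomes were sampled once, since 97.2% of the OE33 bin pairs and 98.3% of the SNU-C1 bin pairs held a single read pair.

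Set against contacts within chromosomes, the mean contact frequency of bins on different chromosomes was 35.4% of that of bins 100 Mb apart on the same chromosome in OE33 and 25.2% in SNU-C1. Against bins 10 Mb apart the values were 4.17% and 1.43%, and against bins 1 Mb apart 0.279% and 0.0896%. The gap between the lines was thus widest against short distances, where SNU-C1 had the higher mean within chromosomes, at 11.3 corrected contacts per bin pair against 8.94 in OE33. At 50 and 100 Mb the order within chromosomes was the opposite, with 0.164 and 0.0704 in OE33 and 0.103 and 0.0401 in SNU-C1.

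Every chromosome sent a larger share of its read pairs to other chromosomes in OE33 than in SNU-C1. A read pair between chromosomes counted for each of them, and a read pair within a chromosome counted once. The shares per chromosome therefore lie above the 35.9% of OE33 and 14.4% of SNU-C1 for the whole maps. Shares of segments, given below, are not on this scale. In OE33 the share ran from 47.3% on chromosome 2 through a median of 54.5% to 65.0% on chromosome 19, and in SNU-C1 from 20.45% on chromosome 2 through 26.5% to 37.1% on chromosome 22. The lowest chromosome of OE33 therefore lay above the highest of SNU-C1. The rise was not even: the share in OE33 was 2.34 times that in SNU-C1 on chromosome 4 and 1.67 times on chromosome 22, with a median of 2.01, so that the highest share was 1.37 times the lowest in OE33 and 1.81 times in SNU-C1. In percentage points the order was another one. The difference ran from 23.4 on chromosome 20 to 31.1 on chromosome 19, with 28.4 on chromosome 4 and 24.9 on chromosome 22. On every chromosome the counting interval of one line lay far from that of the other.

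**Figure D1:**
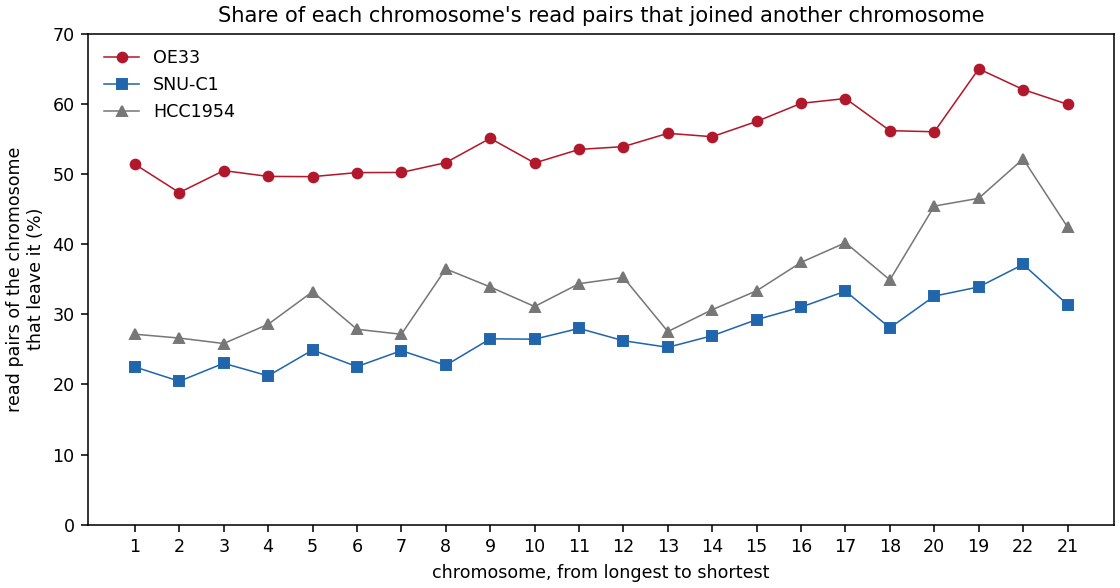
Percentage of the read pairs of each chromosome that joined another chromosome, with chromosomes ordered by length on the horizontal axis and 1 point per chromosome for OE33, SNU-C1 and HCC1954. All OE33 points lie between 47.3% and 65.0% and all SNU-C1 points between 20.45% and 37.1%, and both rise towards the short chromosomes.

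Short chromosomes sent out the largest shares in both lines. Across the 22 chromosomes the share fell with length (Pearson's r = -0.867 in OE33 and -0.890 in SNU-C1, Spearman's rho = -0.919 and -0.933), and rose with protein-coding genes per Mb (r = 0.627 and 0.564, rho = 0.425 and 0.505). Chromosome 19, the most gene-dense, stood at 65.0% in OE33 and 33.9% in SNU-C1. Chromosome 18, which is gene-poor, stood at 56.2% and 28.1%. The shares of the lines went together (r = 0.912, rho = 0.916), and the ratio of OE33 to SNU-C1 was larger on longer chromosomes (r = 0.801, rho = 0.806). That ratio has as its divisor the SNU-C1 share, which itself fell with length. These correlations describe chromosomes of 1 map per line, which share read depth and processing, and they carry no test.

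Each pair of the 22 chromosomes was then set against the contact expected from the totals of its chromosomes (observed over expected, O/E, on corrected contact frequency, where 1 is the value that the totals predict). O/E ran from 0.798 to 1.71 in OE33 and from 0.678 to 2.29 in SNU-C1, and the spread on the log2 scale was an SD of 0.16 in OE33, 0.23 in SNU-C1 and 0.25 in HCC1954. The lines lay on the same side of 1 in 162 pairs, above it in 57 and below it in 105, and SNU-C1 lay further from 1 in 141. The log2 values correlated with r = 0.525 between OE33 and SNU-C1, r = 0.225 between OE33 and HCC1954 and r = 0.257 between SNU-C1 and HCC1954, over pairs that share chromosomes, which carries no test.

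**Figure D2:**
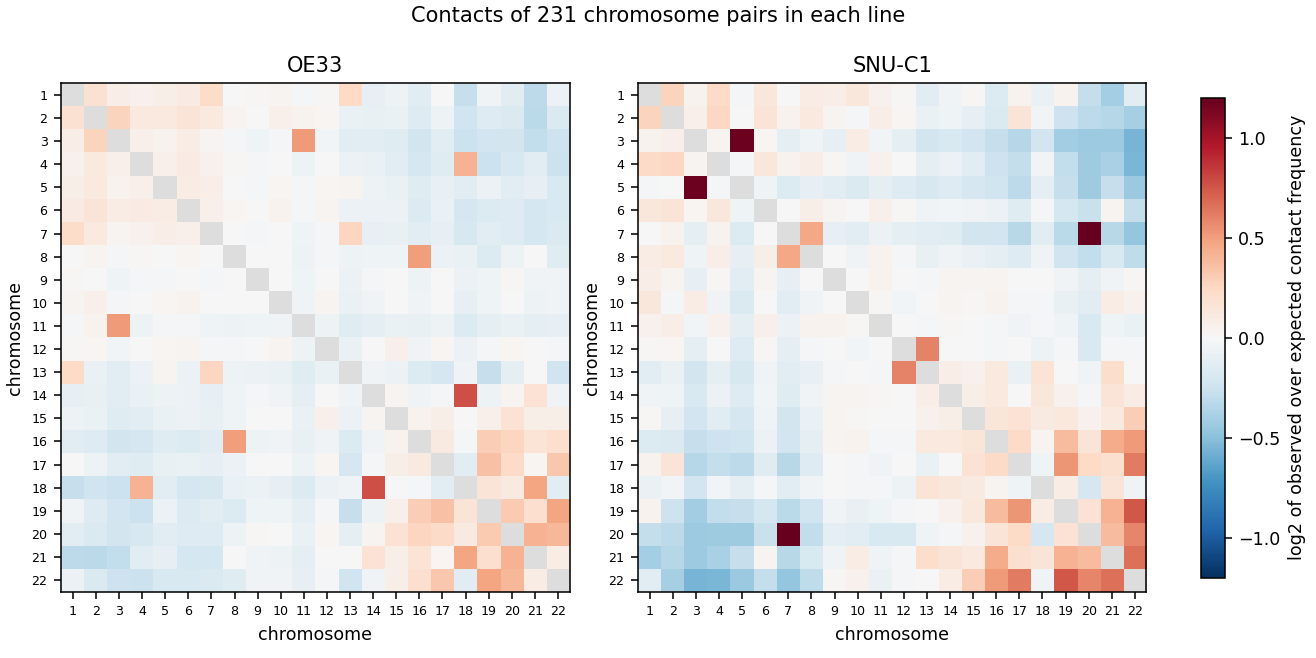
Heat maps of log2 observed over expected contact frequency for all pairs of chromosomes 1 to 22, OE33 on the left and SNU-C1 on the right, with both axes giving the chromosome number and grey for a chromosome with itself. Single strong cells stand out, chromosomes 14 and 18 at an O/E of 1.71 in OE33 and chromosomes 7 and 20 at 2.29 and 3 and 5 at 2.27 in SNU-C1, beside raised cells among chromosomes 16, 17, 19, 20, 21 and 22.

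Few chromosome pairs differed by 1.5 times or more. In OE33 these were 2 (0.866% of the pairs), chromosomes 14 and 18 with an O/E of 1.71 against 1.10 in SNU-C1, and chromosomes 8 and 16 with 1.41 against 0.928. Chromosomes 3 and 11 followed with 1.42 against 0.977 (a log2 ratio of 0.54, but 0.14 without the iterative correction), chromosomes 4 and 18 with 1.34 against 0.980, chromosomes 7 and 13 with 1.19 against 0.909 and chromosomes 1 and 13 with 1.18 against 0.914. The next 4 of the 10 largest ratios, for chromosomes 18 and 21, 18 and 20, 3 and 22, and 7 and 22, lay between 1.23 and 1.25. In SNU-C1 there were 3 (1.3%), chromosomes 7 and 20 with 2.29 against 0.90 in OE33, chromosomes 3 and 5 with 2.27 against 1.03, and chromosomes 12 and 13 with 1.51 against 0.947, which fell below 1.5 times (a log2 ratio of -0.44) when bins needed 0.5 of the median coverage. Chromosomes 21 and 22 had 1.58 against 1.07 and chromosomes 7 and 8 had 1.38 against 0.995. The other 5 of the 10 pairs furthest towards SNU-C1 were 16 and 22, 17 and 22, 13 and 16, 16 and 21, and 13 and 19, with ratios of 1.21 to 1.24. HCC1954 stood at 0.730 for chromosomes 14 and 18, at 0.822 for 7 and 20 and at 0.965 for 3 and 5, but at 1.59 for chromosomes 21 and 22, close to SNU-C1.

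Large differences were concentrated in limited regions. Of 3137823 pairs of 1-Mb blocks on different chromosomes, 2452 (0.0781%) had an O/E of at least 4 in OE33 and at least 4 times that of SNU-C1 after 0.5 was added to both, and 5447 (0.174%) met the same rule the other way. The OE33 block pairs fell on 24 chromosome pairs, and 5 of these held 78.8% of them. Chromosomes 3 and 11 had 591, chromosomes 4 and 18 had 444, chromosomes 8 and 16 had 358, chromosomes 1 and 7 had 286, and chromosomes 14 and 18 had 252. Chromosomes 1 and 13 had 207, 7 and 13 had 149, 2 and 3 had 102 and 5 and 7 had 38, so that chromosomes 1, 7 and 13 were linked in every combination. The SNU-C1 block pairs fell on 152 chromosome pairs, with 73.0% on 5: chromosomes 3 and 5 with 2038, 7 and 20 with 831, 7 and 8 with 400, 12 and 13 with 370, and 2 and 17 with 336. The remainder in SNU-C1 was spread thinly, and 388 of its block pairs held under 10 read pairs against 3 in OE33. The OE33 map had a median of 11 read pairs per block pair and the SNU-C1 map 4.

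The specific block pairs held 323494 read pairs in OE33, 0.676% of those between chromosomes, and 519252 in SNU-C1, 2.85%. Against HCC1954 under the same rule, 74.7% of the OE33 and 72.7% of the SNU-C1 block pairs were specific as well. They already had the high O/E in their own line, so only a low value in HCC1954 was left to meet. The median O/E of HCC1954 over all block pairs was 0.845, and these shares are no independent check. When the specific block pairs were set aside, no chromosome pair was 1.5 times higher in OE33, where chromosomes 14 and 18 kept an O/E of 1.49 against 1.09. In SNU-C1 2 remained, chromosomes 3 and 5 at 1.81 and chromosomes 7 and 20 at 1.57. As these block pairs were chosen for their difference between the lines, setting them aside narrows it by construction and tests nothing. The counts of specific block pairs depend on the correction, and without the iterative correction they were 7608 in OE33 and 10351 in SNU-C1.

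Within these chromosome pairs the strongest point of contact was then sought, which by this choice gives 1 point per chromosome pair. Further strong points in the same pair were not sought. For the 10 chromosome pairs with most specific block pairs in each line, the point was taken as the bin pair with the highest mean contact over 5 by 5 bins (200 kb on each side). At least 50 read pairs lay in that square in 6 chromosome pairs of OE33 and in 5 of SNU-C1. In the same squares the other line held at most 1 read pair for the OE33 points and at most 6 for the SNU-C1 points, and HCC1954 held none and at most 1. The other 4 points of OE33 rested on 5 to 17 read pairs and the other 5 of SNU-C1 on 2 to 17, too few to place a point. All positions are on hg19, genes are from the GENCODE annotation of the same build, and a position is resolved to 40 kb and not to a base.

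In OE33 the point between chromosomes 3 and 11 joined chr3:115080001-115120000, where no protein-coding gene lies, to chr11:108160001-108200000 inside ATM, which encodes a kinase of the DNA damage response, and overlapping C11orf65. The square held 486 read pairs (95% exact Poisson interval 444 to 531) in OE33 and 0 in SNU-C1. Chromosomes 8 and 16 met at chr8:106680001-106720000 inside ZFPM2, which encodes a cofactor of GATA factors, and at chr16:61720001-61760000 inside CDH8, a cadherin gene. The count there was 509 (466 to 555) in OE33 and 0 in SNU-C1. Around both points the contacts lay mainly in 1 of the 4 quadrants. Over the first 5 Mb, leaving out the nearest 0.2 Mb, the mean O/E was 25.3 in the fullest quadrant and 0.790 in the opposite one for chromosomes 3 and 11, and 27.4 and 0.633 for chromosomes 8 and 16. The fullest quadrant was at 4 times the opposite one or more in 4 of the 6 points of OE33 and in all 5 of SNU-C1. The exceptions were chromosomes 7 and 13, with 3.25 and 1.14, and chromosomes 2 and 3, with 10.7 and 9.65. At some of the counted points a second quadrant was raised too. In OE33 it had 7.70 beside 10.9 for chromosomes 1 and 7, and 12.2 beside 19.3 for chromosomes 5 and 7. In SNU-C1 it had 45.7 beside 117 for chromosomes 7 and 20.

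Chromosome 7 carried 3 points in OE33. It met chromosome 1 with chr1:59280001-59320000 and chr7:114480001-114520000 (856 read pairs, 800 to 915, against 0 in SNU-C1), and chromosome 5 with chr5:3120001-3160000 and chr7:115040001-115080000 (479, 437 to 524, against 1). It met chromosome 13 with chr7:99800001-99840000, where STAG3 and PVRIG lie, and chr13:101160001-101200000, where the bin overlaps PCCA and GGACT (550, 505 to 598, against 1). Chromosome 7 had high coverage there, at 5.50 times the median on the contact side of the point with chromosome 1 and 4.32 times on the other. MET, a receptor tyrosine kinase gene, lies in the same stretch. The 1-Mb block that holds MET had 40 specific block pairs and its highest contact, an O/E of 25.2 from 1382 read pairs, was with the block at 1 Mb of chromosome 5, where SNU-C1 had 1.22. Coverage of the MET block was 5.82 times the median in OE33 and 1.61 times in SNU-C1.

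For chromosomes 4 and 18 of OE33 the specific blocks formed a broad field, and the strongest square held only 17 read pairs. The distal part of chromosome 4 from 179 to 184 Mb had 41 to 53 specific block pairs per block, and cancer genes of chromosome 18 lay among its partners. The block of GATA6, a gut lineage factor, had an O/E of 26.2 with the block at 183 Mb of chromosome 4 and the block of SMAD4, a TGF-beta signal transducer, 11.4, from 214 and 63 read pairs, with no read pair in SNU-C1 for either.

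In SNU-C1 the strongest point of either line joined chr7:2320001-2360000 inside SNX8, a sorting nexin gene, to chr20:35480001-35520000, where SOGA1, TLDC2 and SAMHD1 lie. The square held 2029 read pairs (1942 to 2119) against 6 in OE33. Contacts were fullest between the start of chromosome 7 and the higher coordinates of chromosome 20, with a mean O/E of 117 over the first 5 Mb. Chromosome 7 ends within 5 Mb on that side, where coverage had no value, and the quadrant had no mean O/E within 2 Mb. Chromosomes 7 and 8 met at chr7:102920001-102960000, where PMPCB and DNAJC2 lie, and chr8:61840001-61880000, with 868 read pairs (811 to 928) against 0. Chromosomes 12 and 13 met inside genes on both sides, ANKS1B at chr12:99560001-99600000 and FGF14 at chr13:102920001-102960000, with 532 (488 to 579) against 0.

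The most specific block pairs of SNU-C1 lay between chromosomes 3 and 5, where they made up 6.25% of 32617, against 9.45% of 8791 between chromosomes 7 and 20. Its point joined chr3:61440001-61480000 to chr5:70720001-70760000, which overlaps BDP1, with 108 read pairs (89 to 130) against 1 in OE33. The bin on chromosome 3 lies between FHIT, a large gene at a common fragile site, and PTPRG, a receptor phosphatase gene. The block that holds the 5′ part of FHIT had an O/E of 123 with the block at 71 Mb of chromosome 5, from 927 read pairs, where OE33 had 0.604. FHIT lies at lower coordinates than the point, while the fullest quadrant, with a mean O/E of 57.2, lay at higher ones on chromosome 3. The block holds DNA on both sides of the point, so its value is not that of FHIT alone. Chromosomes 2 and 17 met at chr2:21120001-21160000 and at chr17:21240001-21280000, which overlaps KCNJ12 and lies beside the centromere gap of chromosome 17, with 167 read pairs (143 to 194) against 0.

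Contacts were highest within 1 Mb of the points and lower further out, though not always steadily. Around the point of chromosomes 7 and 13 of OE33 they fell from 20.3 within 1 Mb to 2.06 from 2 to 5 Mb and were at 5.66 from 10 to 20 Mb, and around that of chromosomes 5 and 7 they were at 1.08 from 5 to 10 Mb. Over the 6 points of OE33 the median of the mean O/E in the fullest quadrant was 81.2 within 1 Mb, 9.90 from 2 to 5 Mb and 3.90 from 10 to 20 Mb, and 3 of 6 were still at 2 or above from 20 to 40 Mb. Over the SNU-C1 points it was 244 within 1 Mb (4 points, with no value for that of chromosomes 7 and 20), 32.8 from 2 to 5 Mb, 6.89 from 10 to 20 Mb and 4.83 from 20 to 40 Mb, where 5 of 5 were at 2 or above. In the same windows the other line stayed between 0.488 and 2.19. As the points were chosen by these contacts, the values describe them and test nothing.

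**Figure D3:**
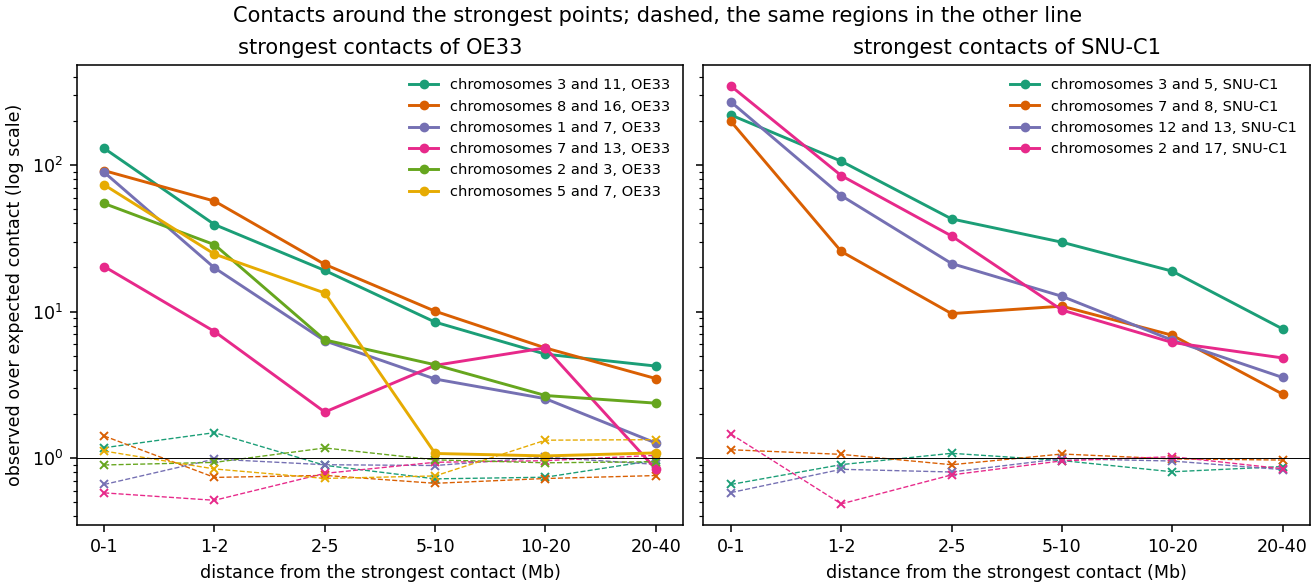
Mean observed over expected contact on a log scale against distance from the strongest point, in bins of distance in Mb, in the fullest quadrant around the 6 points of OE33 (left) and 4 points of SNU-C1 (right). Solid lines give the line that holds the point and start at 20.3 or more within 1 Mb, and dashed lines give the same windows in the other line and stay between 0.488 and 1.49.

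Coverage, which counts read pairs per bin, was compared on both sides of the points. On the OE33 points it was higher on the side that made the contact in 11 of 12 sides compared, over 2 Mb from the point, and at the same places in SNU-C1 in 6 of 12. At the point of chromosomes 8 and 16 it was 1.34 times the median on the contact side of chromosome 8 and 0.783 on the other, and 0.999 and 0.573 on chromosome 16. On the SNU-C1 points it was higher on the contact side in 5 of 7 sides, and at the same places in OE33 also in 5 of 7. At the point of chromosomes 3 and 5 it was 1.78 and 0.888 on chromosome 3 in SNU-C1 and 0.697 and 0.628 in OE33. Coverage was not checked against DNA dose, and the part of DNA dose in the contacts was not tested.

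Short segments with very high coverage were examined next. Segments were taken, after the maps had been seen, as runs of at least 4 bins at 8 times the median coverage or more. SNU-C1 had 3. On chromosome 11 a segment of 320 kb (chr11:23680001-24000000) had a median coverage of 21.7 times the median of the map, and a segment of 440 kb (chr11:34920001-35360000) had 38.0 times. The first overlapped no protein-coding gene, and the second overlapped APIP, PDHX, CD44 and SLC1A2, of which CD44 encodes a hyaluronan receptor on the cell surface. The same bins were at 0.862 and 1.45 times the median in OE33.

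Both chromosome 11 segments left their chromosome far more often than the DNA beside them. In the first, 27.4% of 640823 read pairs (27.3 to 27.5%) went to other chromosomes, against 11.4% in the 1 Mb on each side, and in the second 25.9% of 1610180 (25.84 to 25.98%) against 12.5%. The ratios to the flanks were 2.41 and 2.07. In OE33 the same bins sent out 29.6% and 32.7%, against 30.5% and 35.7% in their flanks, with ratios below 1. The other segments of both lines had ratios of 1.19 or less. The remaining SNU-C1 segment, 200 kb of chromosome 8 at 9.51 times the median, sent out 11.3% against 10.9% in its flanks. OE33 had 3 segments, all on chromosome 17, and in the 2 largest of them, at 15.3 and 17.99 times the median, the shares were 40.01% and 38.3% against 46.6% and 45.5% in the flanks. The first of these holds ERBB2, a receptor tyrosine kinase gene, with its neighbours GRB7, STARD3 and PGAP3, and the second a cluster of keratin genes with JUP. The smallest, 200 kb at 8.86 times the median with TADA2A, had 51.6% against 43.5%. HCC1954 had 4 segments. That of ERBB2, at 50.7 times the median, sent out 23.98%, against 23.3% in its flanks, and the 3 of chromosome 8, at 8.64 to 10.3 times the median, had ratios to the flanks of 0.992 to 1.34.

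The contacts of the chromosome 11 segments of SNU-C1 reached all 21 other chromosomes. In corrected values the O/E of the first segment ran from 3.03 with chromosome 21 to 8.76 with chromosome 3, with a median of 4.68, and that of the second from 3.32 with chromosome 21 to 9.57 with chromosome 3, with a median of 5.29. Their flanks ran from 0.556 to 0.966 and from 0.798 to 1.10. Every value of these segments thus lay above every value of their flanks, as was also so for the chromosome 8 segment of SNU-C1 (1.33 to 1.959 against 0.725 to 1.04) and the ERBB2 segment of HCC1954 (2.44 to 8.91 against 0.662 to 1.959). The values of the chromosome 11 segments were alike over the 21 partners (r = 0.994) and rose with the length of the partner (r = 0.802 and 0.829), where the flanks had r = 0.431 and -0.670. The ERBB2 segment of OE33 ran from 1.36 to 2.79 with a median of 1.73, and its flanks from 0.961 to 1.83. The O/E of the highly covered segments of OE33 and SNU-C1 was thus above that of their flanks also where the share that left the chromosome was not, and the part of coverage in these values was not tested.

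**Figure D4:**
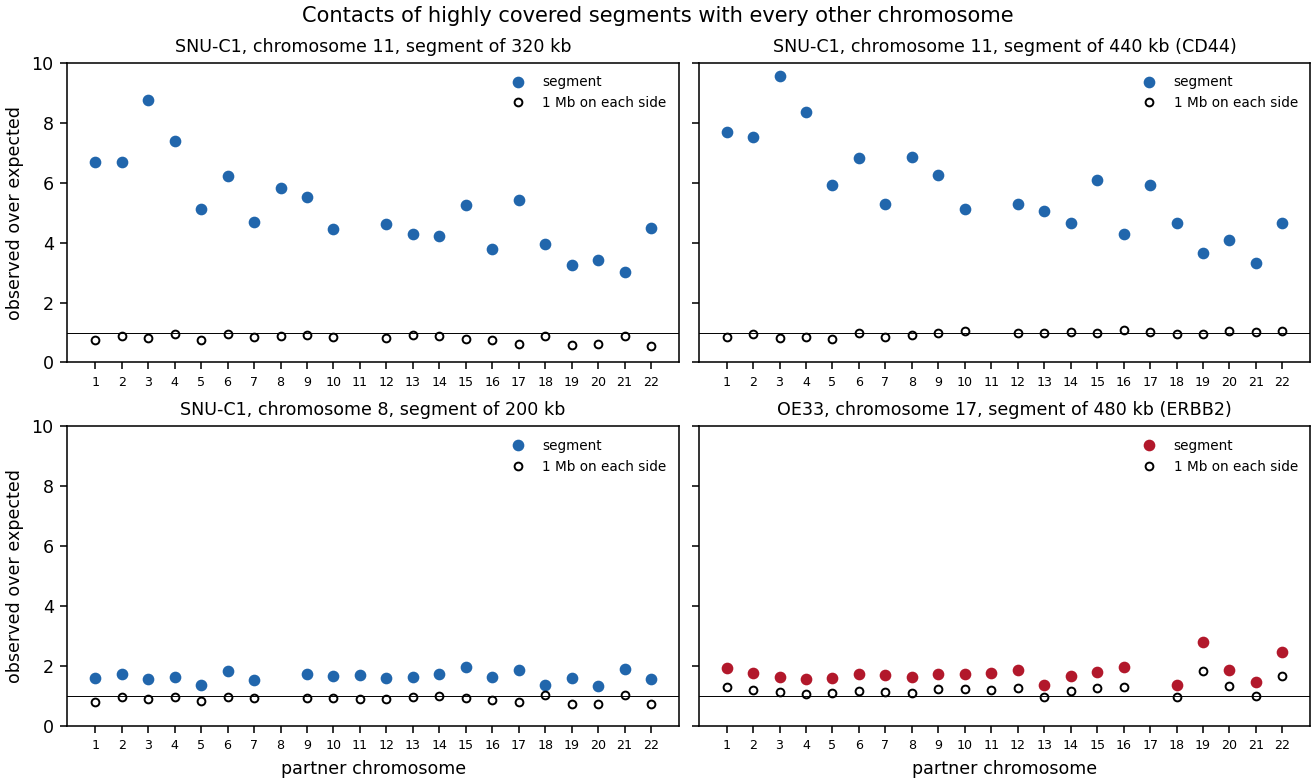
Observed over expected contact of 4 highly covered segments with each of the 21 other chromosomes (filled points) and of the 1 Mb on each side of the segment (open points), with the partner chromosome on the horizontal axis and the same vertical scale in all panels. The chromosome 11 segments of SNU-C1 lie between 3.03 and 9.57 and their flanks at or below 1.10, while the chromosome 8 segment of SNU-C1 and the ERBB2 segment of OE33 lie between 1.33 and 2.79.

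The blocks that hold these segments accounted for 274 of the 5447 SNU-C1 block pairs, 140 for the block at 23 Mb, on 14 chromosomes, and 132 for the block at 35 Mb, on 12 chromosomes. They were the 2 blocks with most specific partners in that line, and neither had any in OE33. The block at 35 Mb was the highest partner in SNU-C1 of the blocks of FBXW7 (O/E 10.2 from 321 read pairs), SOX9 (5.88 from 383), CTNNB1 (5.79 from 264) and NRAS (4.40 from 150), where OE33 had 1.004 to 1.71.

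A list of 39 genes known in esophageal and colorectal cancer, in 38 blocks, was read for contacts of this kind. In OE33 6 of the 38 blocks (15.8%) had at least 1 specific block pair, against 18.3% of all 2579 blocks, and in SNU-C1 15 of 38 (39.5%) against 49.6%. These shares lie near those of all blocks. Besides MET, GATA6 and SMAD4, the OE33 blocks were those of MYC (O/E 8.34 with the block at 57 Mb of chromosome 16), PIK3CA and CCND1, with 4, 3 and 1 specific block pairs. The same blocks had 2, 13 and 2 specific block pairs in SNU-C1. The highest contact of the MYC block in SNU-C1 was an O/E of 15.4 with the block at 111 Mb of chromosome 3. OE33 had 4.05 there, so that this block pair was not among the specific ones. Among the SNU-C1 blocks were those of FHIT with 46 specific block pairs, PMS2, a mismatch repair gene, with 25 and an O/E of 26.2 with the block at 36 Mb of chromosome 20, KLF5 with 23 and 16.3 with 96 Mb of chromosome 12, and CDK6 with 22 and 15.1 with 67 Mb of chromosome 8. The block of ERBB2 had none in either line, although its coverage in OE33 was 5.87 times the median and 0.763 times in SNU-C1.

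Over all block pairs, with the points above left in, the lines also differed in how strongly contacts sorted by kind. The 15 pairs among the small chromosomes 16, 17, 19, 20, 21 and 22 had a mean O/E of 1.199 ± 0.11 (SD over pairs) in OE33 and 1.35 ± 0.18 in SNU-C1, all above 1 in both lines, and 12 of the 15 were higher in SNU-C1. Their lowest and highest values were 1.02 for chromosomes 17 and 21 and 1.39 for 19 and 22 in OE33, and 1.11 for 16 and 20 and 1.68 for 19 and 22 in SNU-C1. The 30 pairs of these with chromosomes 1 to 5 had 0.893 ± 0.05 in OE33 and 0.820 ± 0.10 in SNU-C1, with 27 of 30 higher in OE33. These chromosomes thus met each other more than they met chromosomes 1 to 5 in both lines, and the difference was wider in SNU-C1. HCC1954 had a mean of 1.12 for the first set of pairs and 0.872 for the second. Chromosome 18, which is not in the set, had a mean O/E of 1.06 with its 6 members in OE33 and 1.001 in SNU-C1, with 3 of 6 above 1 in each line. Chromosomes share members across pairs, so the pairs are not independent.

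The acrocentric chromosomes 13, 14, 15, 21 and 22, whose short arms carry the ribosomal RNA genes and meet at nucleoli, gave a mean O/E of 1.01 ± 0.08 over their 10 pairs in OE33 and 1.14 ± 0.17 in SNU-C1, with 9 of 10 higher in SNU-C1. In read pairs without the correction the OE33 mean was 0.996. The first 10 Mb after the unmapped short arm had a mean block O/E of 1.08 in OE33, 1.40 in SNU-C1 and 1.43 in HCC1954, and the rest of these chromosomes 0.991, 1.08 and 1.02. The medians for the first 10 Mb were 0.989 in OE33, 1.29 in SNU-C1 and 1.02 in HCC1954, so that by the median HCC1954 lay near OE33. The 3 larger ones, 13, 14 and 15, had 0.982 with each other in OE33 and 1.0504 in SNU-C1.

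Gene density sorted the contacts in both lines. The blocks were ranked by their number of protein-coding gene starts into 5 classes of 515 or 516 blocks, the poorest with a median of 0 gene starts and the densest with 17. Densest blocks met each other with a mean O/E of 1.57 in OE33 and 1.60 in SNU-C1, and densest met poorest with 0.771 and 0.658. Poorest blocks met each other at 1.01 in OE33 and 1.23 in SNU-C1. The contrast, the log2 of the products of like over unlike contacts, was 1.41 in OE33, 2.18 in SNU-C1 and 1.4997 in HCC1954, and 1.42 and 2.04 in OE33 and SNU-C1 without the correction. With classes taken from the first eigenvector of contacts within chromosomes of the same line, which separates active from inactive chromatin, it was 1.76 in OE33, 2.82 in SNU-C1 and 2.25 in HCC1954.

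**Figure D5:**
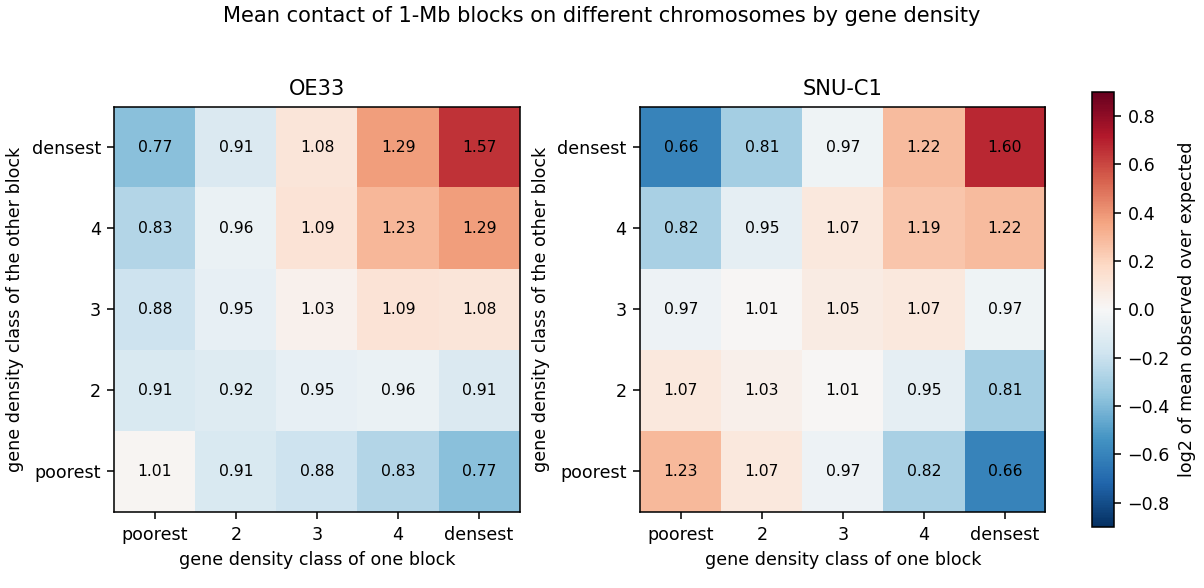
Mean observed over expected contact of 1-Mb blocks on different chromosomes for each pair of 5 gene density classes from poorest to densest, OE33 on the left and SNU-C1 on the right, with the mean in each cell and its log2 as colour. Densest blocks meet each other at 1.57 and 1.60, and poorest blocks at 1.01 in OE33 and 1.23 in SNU-C1.

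Chromosome ends met each other often. The 71 blocks in the last 2 Mb of arms had a mean O/E with each other of 1.94 in OE33, 3.19 in SNU-C1 and 2.16 in HCC1954. The order of the lines rested on the correction. Coverage of the end blocks was 1.02 times the median in OE33, 0.625 in SNU-C1 and 0.528 in HCC1954, and the correction raises contacts of bins with low coverage. In read pairs without it the means were 1.92 in OE33, 1.85 in SNU-C1 and 1.33 in HCC1954. In the contrast of ends with the 2212 blocks that lay neither within 5 Mb of an end nor on the centromere side, built as for gene density, SNU-C1 stayed higher both ways, with a log2 of 1.14 against 0.80 in OE33 with the correction and 1.03 against 0.75 without it. In HCC1954 it was 0.72 with the correction and 0.33 without it.

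The ends are gene-dense, with a median of 11 gene starts per block against 5 over all blocks. Within the densest class, the only one also measured away from the ends, the 36 end blocks had a mean O/E of 2.95 with each other in OE33 and 4.84 in SNU-C1, and the 445 blocks of that class over 5 Mb from the ends had 1.52 and 1.46. Without the correction these were 3.33 and 2.47 for the ends and 1.94 and 1.40 elsewhere. End blocks outside the densest class had 1.63 and 2.998 (1.29 and 1.95 without the correction). The rise was steep, since blocks from 2 to 5 Mb from an end met blocks at the same distance at 1.26 in OE33 and 1.84 in SNU-C1, and those from 10 to 20 Mb at 1.04 and 1.11.

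Blocks within 5 Mb of the centromere gap, 179 in all, met each other with a mean O/E of 1.18 in OE33 and 1.32 in SNU-C1, and their log2 contrast with the same 2212 blocks was 0.24 and 0.60, the same without the correction. Ends met the centromere side at 1.12 and 1.14, with 0.916 in SNU-C1 without the correction.

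Contacts that both lines held strongly were mostly of a common kind. Of the 3137823 block pairs tested, an O/E of at least 4 was found in 5273 of OE33 and 20181 of SNU-C1. Both lines had it in 676 (0.0215%), of which 594 had at least 10 read pairs in each line. The median was 11 read pairs per block pair in OE33 and 4 in SNU-C1, and the 99th percentile of O/E was 2.51 and 3.53. The part of depth in these counts was not tested. Both blocks were in the densest class in 69.1% of the 676, against 3.97% of all block pairs tested, and within 5 Mb of an end in 36.1%, against 0.536%. The blocks at 144 and 145 Mb of chromosome 8, with 30 and 46 gene starts, led with 59 and 61 shared block pairs on 16 chromosomes each. The end of chromosome 8 met the start of chromosome 11 at 14.4 in OE33 and 18.6 in SNU-C1, and the block at 140 Mb of chromosome 9 at 12.4 and 16.8. The start of chromosome 12 met the start of chromosome 6 at 17.3 and 44.3, and the block at 62 Mb of chromosome 20 at 16.7 and 29.3. The 3 highest shared values were unlike these, since the block at 57 Mb of chromosome 6, beside the centromere gap and with 3 gene starts, met the block at 21 Mb of chromosome 5, with none, at 41.6 in OE33, 135 in SNU-C1 and 94.5 in HCC1954, and the blocks at 89 and 88 Mb of chromosome 3 at 34.98 and 20.3 in OE33 and 132 and 68.4 in SNU-C1. Whether repeats beside the centromere gap mapped wrongly there was not tested.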

How the data were processed

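In situ Hi-C libraries cut with MboI were aligned to hg19 with BWA-MEM and cleared of PCR duplicates with Picard by the authors, who built matrices with in-house pipelines and applied iterative correction. Tool versions and read filters are not stated there. The deposited values are a signal, the corrected contact frequency of 40-kb bin pairs. In each map this is a number of read pairs divided by a factor per bin. The factors were fitted over 45 iterations, and 100% of the values tested came out whole within 0.02, so read pairs were recovered. The bins' chromosome lengths equalled those of GRCh37 for all 22 chromosomes.

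Shares used read pairs, and O/E used corrected values. Bins needed 0.25 of the median coverage in both lines (63445 of 72036), and 1-Mb blocks 13 usable bins of 25 (2579 of 2897). The expected value of a chromosome pair was the product of its chromosomes' totals, scaled to the observed sum and spread evenly over usable bin pairs. Specific block pairs had an O/E of at least 4 and 4 times the other line. Centromere gaps were the longest runs of unusable bins. To be named were the 10 chromosome pairs with the largest and smallest ratio and the gene list. The 10 per line with most specific block pairs were also to be named, with the genes at their strongest contact. Of these, counts are given for the first 9 of OE33 and the first 5 of SNU-C1. Genes are given only at points with at least 50 read pairs. The rule fixed for the strongest contact used the strongest bin pair of the block pair with the highest ratio, which often lay at a block edge. The point over 5 by 5 bins, the segments and the split of ends by gene density were chosen after seeing the data. The place of 1 point of OE33 is not reported here, and of the gene list only some blocks with a specific block pair or a partner named in the text, and that of ERBB2, are given by value. The members and lists were chosen with earlier results of these data known. With 1 map per line no test was run. The steps were tested on simulated data. Python 3.11.15, NumPy 2.4.6, SciPy 1.17.1 and Numba 0.67.0 were used.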

Additional observations from a re-analysis of the deposited data

How the results depend on the processing

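Neither line has a second map, so the settings below show the effect of processing only, and no value has a replicate error. Differences were called a move when they passed the counting error or, for counts, 1.5 times. Shares of read pairs between chromosomes in OE33 and SNU-C1 were 32.9% and 13.8% in corrected values, 35.8% and 14.3% in usable bins only, and 58.1% and 33.2% against pairs at least 1 Mb apart. Without line-specific block pairs, which were chosen for their difference, chromosome pairs 1.5 times higher in OE33 went from 2 to 0. The other settings gave 2 in OE33 and 3 or 4 in SNU-C1, but not always the same pairs. At 0.5 of the median coverage chromosomes 12 and 13 went from a log2 ratio of -0.68 to -0.44 and lost the call, and chromosomes 21 and 22 went from -0.56 to -0.63 and gained it. Specific block pairs of OE33 and SNU-C1 numbered 7608 and 10351 without the correction, 8771 and 10652 with OE33 also thinned to the read pairs of SNU-C1, 594 and 1007 in blocks of 2 Mb and 15272 and 97122 in blocks of 500 kb. Fewer block pairs exist at 2 Mb (781265) and more at 500 kb (12338232). As shares, OE33 and SNU-C1 had 0.0760% and 0.129% at 2 Mb and 0.124% and 0.787% at 500 kb, against 0.0781% and 0.174% at 1 Mb. Without the blocks at 23, 34 and 35 Mb of chromosome 11, tried once the maps had been seen, SNU-C1 had 5173.

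In OE33 and SNU-C1 without the correction the mean O/E was 1.18 and 1.33 for the small chromosomes 16, 17 and 19 to 22, 0.996 and 1.16 for the acrocentric ones, 1.92 and 1.85 for ends, 1.19 and 1.31 for the centromere side and 1.14 and 0.916 for ends with the centromere side, and the gene density contrast was 1.42 and 2.04. The acrocentric mean of OE33 and the value of SNU-C1 for ends with the centromere side thus crossed 1. The cause was not tested. With expected values fitted to every chromosome total, the small chromosomes had 1.27 and 1.42 and the acrocentric ones 1.07 and 1.196. With classes from the eigenvector the contrast was 1.76 and 2.82. With ends of 5 Mb the ends had 1.42 and 2.13 and ends with the centromere side 1.09 and 1.07.

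Without line-specific block pairs the gene density contrast was 1.38 and 2.16, the centromere side 1.16 and 1.30, and ends with the centromere side 1.11 and 1.12. In SNU-C1 alone the mean of the small chromosomes was 1.36, the acrocentric 1.13 and the ends 3.03. In these means SNU-C1 was above OE33 in each setting except ends without the correction and ends with the centromere side, without the correction and at 5 Mb. Depth limits SNU-C1 more than OE33, with a median of 4 read pairs per block pair and 5.17% of block pairs without any. No paired analysis was possible because no result comes from a test and each line has a single map.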
